A study of Triticum aestivum with 2 samples.

Results

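The central stele zone is the middle of a wheat root cross section, the position of provascular cells, xylem and phloem. It was delimited by position alone, in 3 sections of the distal root region: every capture spot closer to the section centre than 0.37 of the section radius was counted in the zone, and the spots from 0.37 to 1 of the radius made up the rest of the section. The zone held 252623 spots with at least 1 molecule, of 1864193 in the 3 sections and of 60774988 in both chips of the series. Genes were compared where they had at least 100 molecular identifiers (MIDs, each standing for 1 captured RNA molecule) in the 3 sections, which left 7816 of the 96646 gene IDs of the chip.

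Roots of soil-grown seedlings of Triticum aestivum, ecotype Chinese Spring, were frozen, cut across at 10 μm and placed on Stereo-seq chips, which capture polyadenylated RNA on a dense array of barcoded spots. The series holds 2 chips, 1 with the distal root region and 1 with the root cap region, and no treatment or mutant was compared. The 3 sections lie on the same chip and form 1 library, so they are not independent samples and no p-value is given. The names sections 1, 2 and 3 follow the order in which the circles were defined, not the numbering used in the study.

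In a grass root the stele lies inside the endodermis and pericycle and holds xylem and phloem strands around large central metaxylem vessels. Provascular cells are the undifferentiated precursors of this tissue. Xylem vessels lay down a thickened wall and then die and empty, whereas sieve elements of the phloem stay alive. A Stereo-seq spot is smaller than a cell and RNA can spread sideways before capture, so the zone is a position that can hold several cell types. More cells of a type and more RNA per cell cannot be told apart in such sums.

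The zone was sequenced to 196408, 211962 and 299822 MIDs of nuclear genes in sections 1, 2 and 3, against 1160698, 1511333 and 1894775 MIDs in the rest of the same sections. Per spot position this came to 1.69, 1.32 and 1.94 MIDs in the zone and 1.58, 1.498 and 1.94 MIDs in the rest. RNA was also captured outside the circles: in a ring just outside each section, out to 1.5 radii from its centre, the density was 1.12, 1.09 and 1.303 MIDs per spot. Section 1 is oval and its circle follows the outline loosely, so this off-section ring holds some tissue there, and all off-section values include it. The zone was therefore above the rest in section 1, below it in section 2 and level with it in section 3, and in all 3 it was less than 2 times as dense as the area off the sections. The share of exonic MIDs was 86.6% (95% exact binomial limits 86.5 to 86.6%) in the zone and 85.8% (85.8 to 85.9%) in the rest. The share of MIDs by subgenome was 35.3% (A), 31.1% (B) and 31.9% (D) in the zone and 35.0% (A), 30.9% (B) and 31.9% (D) in the rest, nearly alike at both positions. All limits given here cover counting error only.

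The 2 genes that mark the zone were examined first. Both belong to marker lists that the study chose on sections of these chips, so their values are no independent check of the label. TraesCS5D03G0346300, the marker of provascular cells, had 20, 35 and 142 MIDs in the zones of sections 1, 2 and 3, against 6, 3 and 28 MIDs in the much larger rest. It was far denser in the zone of each section, with a pooled log2 ratio of 5.07 (95% counting interval 4.57 to 5.58), which is 33.7-fold. TraesCS5A03G0388600 encodes an XCP1-like cysteine protease, whose Arabidopsis relative takes part in the clearing of dying xylem vessels, and it had 28, 3 and 6 MIDs in the zones against 30, 3 and 13 MIDs in the rest. Its log2 ratio was 2.29 (1.67 to 2.92), positive in all 3 sections, but with 83 MIDs it stayed under the minimum of 100. Levels are in CPM (MIDs per 1000000 nuclear MIDs of the same area), and the ratio is that of the CPM of a gene in the zone to that in the rest, combined over the 3 sections by the Mantel-Haenszel method.

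The marker lists that the study had chosen on sections of these chips were enriched in the zone for vascular cells and depleted for the outer layers, which is not independent evidence of the label. The 8 provascular genes had 118, 65 and 346 MIDs in the zones against 60, 25 and 97 MIDs in the rest, and a log2 ratio of 4.19 (3.95 to 4.43). The 4 xylem genes had 76, 13 and 8 MIDs against 99, 28 and 31 MIDs, with a ratio of 1.92 (1.55 to 2.29) that was 1.25 without section 1. The 5 phloem genes had only 2, 18 and 5 MIDs against 3, 11 and 29 MIDs, with a ratio of 1.92 (1.22 to 2.63) that was 0.46 without section 2 and 3.29 without section 3. Among the outer layers, the log2 ratio was -2.31 (-2.47 to -2.15) for the 14 cortex genes, -2.13 (-2.3 to -1.96) for the 18 epidermis genes and -0.94 (-1.70 to -0.18) for the 5 endodermis genes. TraesCS2B03G1383800LC gave 242 of the 334 cortex MIDs of the zone, and without genes of suffix LC the cortex ratio was -3.42. Of the 19 root cap genes, none had a MID in the 3 sections, and this list tells nothing about the zone. Of the cell cycle genes, the 20 G1/S genes had log2 ratios of -1.14, 0.70 and 0.12 in sections 1, 2 and 3, with no common sign. The 20 G2/M genes had ratios of -0.34, -0.02 and -0.33, slightly below 0 in each section, and a pooled ratio of -0.22 (-0.42 to -0.02).

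**Figure D1:**
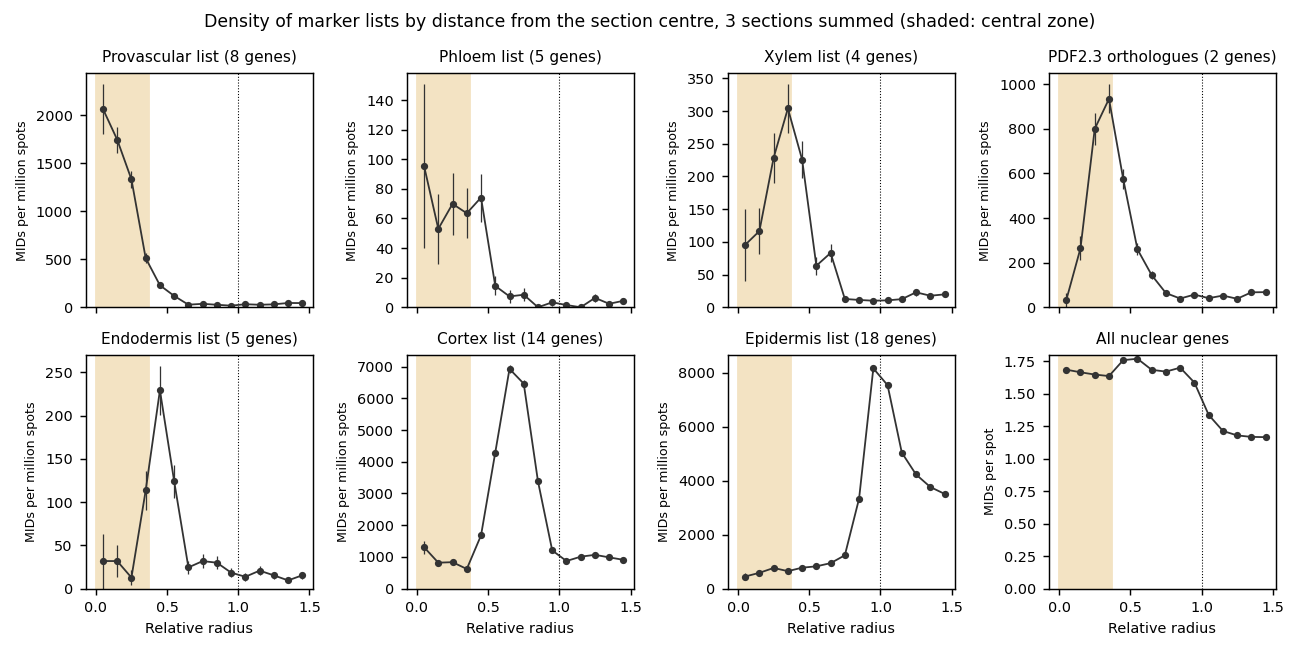
Density of 7 gene lists, in MIDs per 1000000 spots, and of all nuclear genes, in MIDs per spot, by relative radius in steps of 0.1, with the 3 sections summed, where points are sums over the sections, bars are the square root of the MID count on the same scale, the shaded band is the central zone and the dotted line marks a radius of 1. The provascular list is densest at the centre, the xylem list and the PDF2.3 orthologues peak from 0.3 to 0.4, and the endodermis, cortex and epidermis lists peak successively farther out, whereas all genes together stay between 1.58 and 1.77 MIDs per spot up to a radius of 1.

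Within the zone the lists did not share a position. The inner part of the zone, with 50% of its radius and 25% of its area, held 25.4% of all MIDs of the zone. It held 38.8% (34.6 to 43.1%) of the zone MIDs of the provascular list, but 8.25% (3.63 to 15.6%) of those of the xylem list and 5.52% (3.25 to 8.69%) of those of the 2 PDF2.3 orthologues. The provascular list was thus shifted to the centre and the xylem list and PDF2.3 orthologues to the border of the zone, beyond counting error. The study judged provascular genes by signal at the section centre, where it expects diffused RNA to gather in dead metaxylem. The central position of this list is thus in part set by how it was chosen. Provascular MIDs fell steadily with distance, with 2068, 1748, 1333 and 512.6 MIDs per 1000000 spots in successive rings of 0.1 of the radius, and 229.4 in the next ring outward. The PDF2.3 orthologues ran the other way over the same rings, with 31.8, 264.8, 800.1 and 934.5 MIDs per 1000000 spots, and 575.2 in the next ring. The phloem list, with 25 MIDs in the zone, had 32.0% (14.9 to 53.5%) of them in the inner part, which leaves its position within the zone undetermined at this depth.

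**Figure D2:**
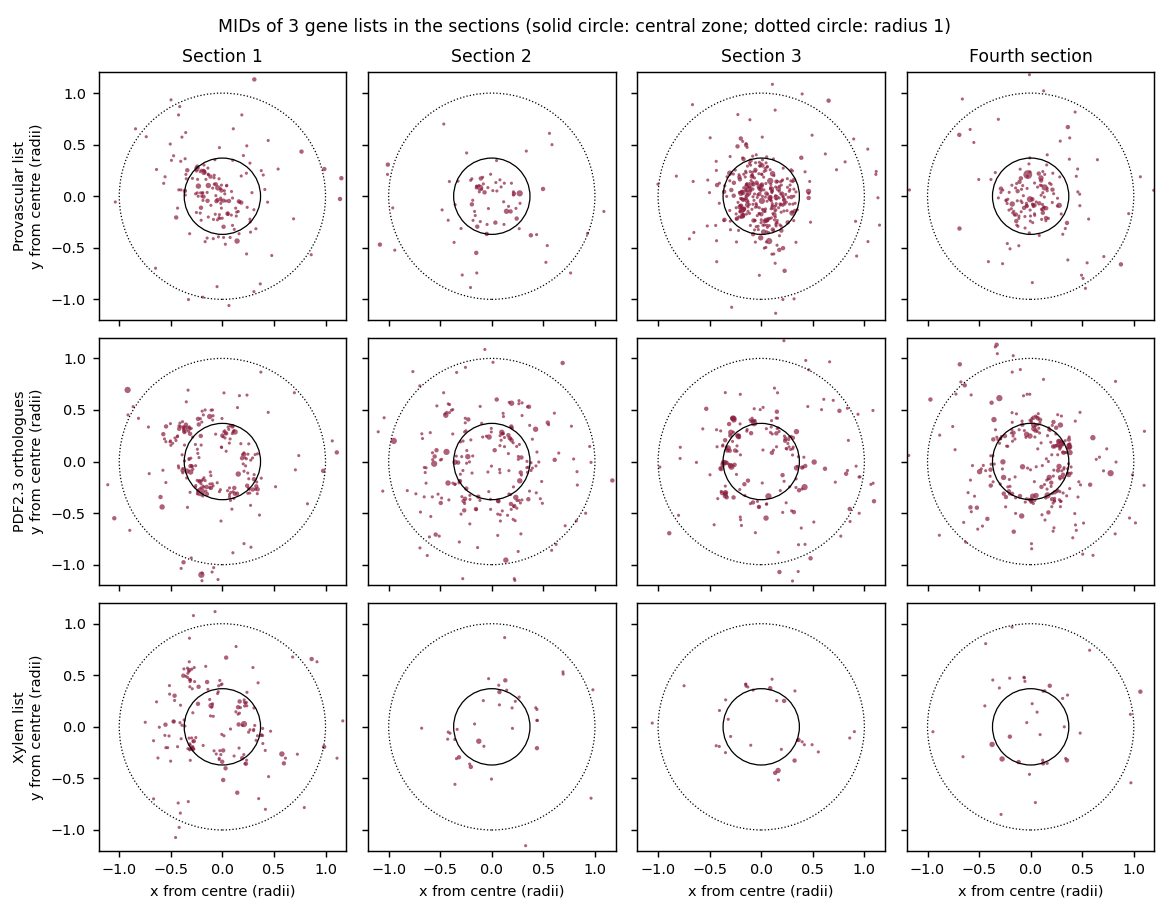
Positions of MIDs of the provascular list, the PDF2.3 orthologues and the xylem list (rows) in sections 1 to 3 and the fourth section (columns), with x and y as distances from the section centre in radii and the area of a point proportional to its MIDs. The solid circle bounds the central zone and the dotted circle the section, and the provascular MIDs fill the solid circle whereas those of the PDF2.3 orthologues follow its border.

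Over all genes tested, 17.0% were higher in the zone in all 3 sections and 21.0% were lower in all 3, whatever the size. A gene was called higher where in addition the pooled log2 ratio was at least 1, which held for 106 genes (1.36%), and lower where it was at most -1, which held for 656 genes (8.39%). Depletion from the zone was called more often than enrichment on this scale, and the median log2 ratio of all genes tested was 0.01. The minimum for testing was set on MIDs of zone and rest together, of which the zone held 13.4%. A gene could thus pass on MIDs of the rest alone, whereas a gene confined to the zone had to pass on this smaller part. Of the 656 genes called lower, 87 had 1 to 3 MIDs in the zones. A section without a MID of the gene in the zone counted as lower, and 393 of the 656 had a finite ratio in all 3 sections. How far this rule shaped the split was not tested. The split also changed when the off-section density of each gene was subtracted and values below 0 were set to 0: 689 genes were then higher and 914 lower. The counting interval was entirely above 2-fold for 37 of the 106 and entirely below for 237 of the 656. The 106 genes made up 1.35% of the MIDs of the zone and 0.413% of those of the rest, and the 656 genes made up 1.299% of the MIDs of the zone and 4.90% of those of the rest. At the threshold, TraesCS7D03G0937200 was the last gene called higher, with a log2 ratio of 1.0034, and TraesCS7B03G0152000 missed it with 0.9971.

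The strongest enrichment was that of TraesCS5A03G0363500, a gene the study also plotted for provascular cells. It had 54, 44 and 181 MIDs in the zones of sections 1, 2 and 3 and 12, 9 and 24 MIDs in the rest, so that 86.1% of its MIDs lay in the zone. The log2 ratio was 5.30 (4.84 to 5.75), or 39.4-fold. TraesCS1B03G0051800, a member of the provascular list, had 68, 20 and 128 MIDs against 23, 8 and 23 MIDs, a log2 ratio of 4.64 (4.21 to 5.07). Both genes were highest in section 3 and above the rest in each section. They were densest within the first 0.2 of the radius, and 39.4 and 36.6% of their zone MIDs lay in the inner part.

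The other provascular genes had far fewer molecules. TraesCS1B03G0053600 had 8, 6 and 46 MIDs in the zones against 6, 4 and 29 MIDs in the rest, and with 99 MIDs it missed the minimum by a single molecule although its log2 ratio was 3.28 (2.70 to 3.86). TraesCS6A03G0661700LC had 20, 2 and 11 MIDs against 21, 8 and 6 MIDs (log2 ratio 2.55, 1.86 to 3.24). TraesCS3D03G0013700 is annotated as WALLS ARE THIN 1-like, after an Arabidopsis vacuolar auxin transporter needed for fibre walls, and 24 of its 25 MIDs lay in section 3, 13 in the zone against 11 in the rest. TraesCS2A03G0412800, TraesCS3B03G0036500 and TraesCS1B03G0050600 had 10, 3 and 2 MIDs in the 3 sections, too few for a direction.

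The remaining genes among the 12 with the highest ratio carry no protein name in the sources used here, apart from TraesCS2B03G0976900, annotated as a diphthine methyltransferase homolog, an enzyme family that acts on elongation factor 2, and labelled endodermis in the tables of the study. TraesCS2B03G1542000 had 53, 99 and 58 MIDs in the zones against 43, 38 and 17 MIDs in the rest, a log2 ratio of 3.78 (3.44 to 4.13). TraesCS4B03G0978100 had 70, 27 and 49 MIDs against 28, 12 and 41 MIDs (3.50, 3.11 to 3.89). Both were centred like the provascular list, with 37.6 and 40.4% of their zone MIDs in the inner part. TraesCS2B03G0976900 differed between sections, with 104, 49 and 11 MIDs against 49, 43 and 24 MIDs, and its log2 ratio was 3.65, 3.02 and 1.53. TraesCS4B03G0939700 varied even more, with log2 ratios of 1.18, 5.10 and 3.27 on 18, 29 and 81 MIDs. TraesCS5A03G0580100, TraesCS7D03G0195000, TraesCS4A03G0576000 and TraesCS3A03G0091900 had pooled log2 ratios between 2.86 and 3.10 and were positive in every section.

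TraesCS5B03G0221000 was the most even gene of this group. It had 140, 150 and 82 MIDs in the zones of sections 1, 2 and 3 against 101, 129 and 62 MIDs in the rest, and its log2 ratio was 3.03, 3.05 and 3.06. Unlike the provascular genes it was densest in the ring from 0.2 to 0.3 of the radius, with 984.2 MIDs per 1000000 spots, and 18.3% (14.5 to 22.6%) of its zone MIDs lay in the inner part.

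**Figure D3:**
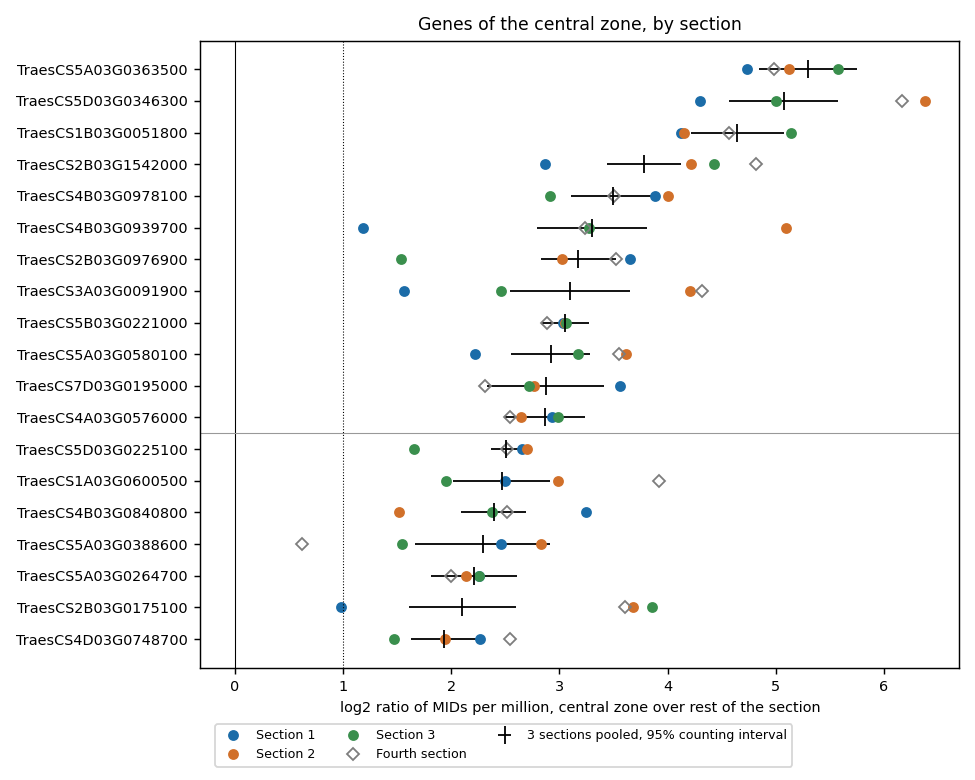
log2 ratio of CPM in the central zone over the rest of the section for the 12 genes with the highest pooled ratio (above the grey line) and 7 other named genes of the zone (below it), where filled circles are sections 1 to 3, open diamonds the fourth section, vertical ticks the pooled ratio with its 95% counting interval, and the dotted line a log2 ratio of 1. TraesCS5B03G0221000 lies between 2.89 and 3.06 in all 4 sections, whereas TraesCS4B03G0939700 ranges from 1.18 to 5.10.

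The most abundant gene called higher was TraesCS5D03G0225100, with 271, 385 and 95 MIDs in the zones against 254, 421 and 191 MIDs in the rest. Its level was 1060 CPM in the zone and 189.6 CPM in the rest, a log2 ratio of 2.51 (2.37 to 2.65), and it too was densest from 0.2 to 0.3. The other abundant genes lay closer to the threshold. TraesCS7B03G0171900, TraesCS7A03G0375000 and TraesCS7D03G0358200 had 304, 178 and 245 MIDs in the zone of section 3, more than in both other zones together, and pooled ratios of 1.49 (1.32 to 1.66), 1.37 (1.16 to 1.59) and 1.11 (0.93 to 1.29). TraesCS1D03G0025100 went the other way, with 256, 52 and 6 MIDs in the zones against 571, 355 and 27 MIDs in the rest. Its ratio of 1.05 (0.87 to 1.24) rested on section 1, with 1.41 there and 0.06 in section 2.

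Among the 106 genes, 9 had a protein name or an Arabidopsis alias. The 2 defensins orthologous to PDF2.3, small cysteine-rich secreted peptides, were both called. TraesCS4B03G0840800 had 69, 35 and 59 MIDs in the zones against 43, 87 and 72 MIDs in the rest (log2 ratio 2.39, 2.09 to 2.69), and TraesCS4D03G0748700 had 62, 47 and 36 MIDs against 76, 87 and 82 MIDs (1.93, 1.63 to 2.23). The third defensin tested had a pooled log2 ratio of -2.002 but was not called, since it was not below 0 in all 3 sections. Both PDF2.3 genes carry the labels endodermis, pericycle and phloem in the tables of the study. The B and D copies thus shared a direction and a position at the border of the zone, where 3.68 and 7.59% of their zone MIDs lay in the inner part.

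TraesCS1A03G0600500, an ethylene-responsive transcription factor like RAP2-3, had 22, 29 and 22 MIDs in the zones against 23, 26 and 36 MIDs in the rest (log2 ratio 2.47, 2.02 to 2.92). Of the 7 tested genes named as ethylene-responsive transcription factors it was the only one called higher (1.36% of all genes tested) and 3 were called lower (8.39%). TraesCS2B03G0175100, annotated as aquaporin PIP2-6, a water channel of the plasma membrane, had 20, 18 and 16 MIDs against 60, 10 and 7 MIDs (2.10, 1.61 to 2.60). Of 12 tested aquaporins 6 were called lower and no other was called higher, beside 8.39 and 1.36% of all genes tested. Genes with a protein name or alias were called more often than all genes: of 366 tested, 95 were called lower and 9 higher. TraesCS5A03G0264700, like the LIM-domain protein WLIM1, which binds actin filaments in plants, had 21, 29 and 37 MIDs against 26, 47 and 49 MIDs (2.21, 1.82 to 2.61) and varied little between sections. Its label in the tables of the study is endodermis, and it had 87 MIDs in the zone against 20 in the adjacent ring from 0.37 to 0.50 of the radius.

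The last 3 annotated genes were near the threshold and shallow. TraesCS1B03G0911600, like the quinone reductase FQR1, had 34 MIDs in the zones and 76 in the rest (log2 ratio 1.48, 0.90 to 2.07). TraesCS5B03G0626700, a probable carboxylesterase 2, had a ratio of 1.299 (0.72 to 1.88), and TraesCS5A03G1247300, a tubulin beta-2 chain, had 1.11 (0.61 to 1.61). The first and the last of these carry the label xylem in the tables of the study. Of 17 tested tubulin genes TraesCS5A03G1247300 was the only one called, and their median log2 ratio was 0.08, close to that of all genes.

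Xylem genes were enriched less sharply than provascular genes and no member of the list reached 100 MIDs. Of XCP1, the copies TraesCS5A03G0388600, TraesCS5B03G0387000 and TraesCS5D03G0377000 had 37, 22 and 18 MIDs in the zones against 46, 36 and 23 MIDs in the rest. Their log2 ratios of 2.29 (1.67 to 2.92), 1.89 (1.12 to 2.66) and 2.303 (1.40 to 3.204) overlap within counting error. Section 1 gave 28, 20 and 16 of these zone MIDs, so the ratios rest largely on that section. In section 3 TraesCS5D03G0377000 had 0 MIDs in the zone against 6 in the rest. TraesCS1A03G0062800, a further XCP1-like gene, had 20 MIDs against 53 MIDs and a ratio of 1.24 (0.50 to 1.98). It too was below 0 in section 3, with 1 MID against 8. The sources do not say how reads of near-identical copies were assigned, so values of single copies are uncertain. A cross-species list held the 73 wheat genes of xylem orthogroups shared by at least 3 species. The study built it from single-cell markers of other species and of its own wheat data, and names XCP1 among these orthogroups. It is thus not independent of the xylem list. The 73 genes had 323 MIDs in the zones against 1185 MIDs in the rest and a pooled log2 ratio of 0.78 (0.60 to 0.96). The ratio was 1.16, -0.05 and 0.51 in sections 1, 2 and 3, so that section 2 showed no enrichment, and 0.13 in the fourth section of the chip. Of its 4 members with at least 100 MIDs, 1 was called higher. The wheat targets predicted for VND4, a NAC factor known in Arabidopsis as a regulator of vessel formation, showed no such shift: of 93 tested, 1 was called higher (1.08%) and 9 lower (9.68%), near the shares of all genes.

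For phloem and pericycle the depth allowed little. TraesCS7D03G0500500, with the Arabidopsis alias HVA22E, gave 15 of the 25 phloem MIDs of the zone, 13 of them in section 2, and had a log2 ratio of 2.87 (1.82 to 3.91). TraesCS2D03G0068900 had 6 MIDs against 10 MIDs (1.93, 0.48 to 3.38), TraesCS2B03G0108200 had 2 against 10, TraesCS6A03G0202900 had 2 against 3, and TraesCS2A03G0073400 had 0 against 6. The 5 pericycle genes had 12 MIDs in the zones and 28 in the rest, and 23 of the 40 came from TraesCS6B03G0419800, with a ratio of 2.01 (0.79 to 3.23). TraesCS4D03G0223700, TraesCS4A03G0535400, TraesCS4B03G0262700 and TraesCS5B03G1121200 had at most 8 MIDs each.

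The zone was then set against the adjacent ring from 0.37 to 0.50 of the radius, the position of endodermis and pericycle. The provascular list remained higher in the zone, with 529 MIDs against 89 MIDs and a log2 ratio of 2.34 (2.02 to 2.67). The xylem list did not separate, with 97 MIDs against 84 MIDs and a ratio of 0.03 (-0.39 to 0.45), nor did the phloem list, with 25 MIDs against 29 MIDs and a ratio of -0.40 (-1.16 to 0.36). The PDF2.3 orthologues were slightly higher in the zone (0.34, 0.09 to 0.59) and the endodermis list lower (-2.61, -3.40 to -1.82). The ring is part of the rest and the zone MIDs are those of the calls, so for called genes this comparison is in part fixed. For the 106 genes called higher the median log2 ratio was 0.81. Of these, 101 were also above the adjacent ring and 44 were at least 2-fold above it, counts not made for all genes tested. The exceptions, named after their values were seen, were TraesCS5A03G1163200LC, TraesCS5D03G0227200, TraesCS1D03G0025100, TraesCS4B03G0669400 and TraesCS1D03G0730700, with ratios from -0.63 to -0.06. TraesCS5D03G0227200 was denser in the ring, with 106 MIDs in the zones and 148 in the adjacent rings.

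Within the zone the position of most of the 106 genes was not resolved beyond counting error. The median share of zone MIDs in the inner part was 29.4% for these genes, against 25.4% for all MIDs of the zone. The inner part held a larger share of their zone MIDs than of all MIDs for 75 genes and a smaller share for 31. The counting limits excluded the overall share for 22 and 8 of them, counts not made for all genes tested. The lowest share was 3.08% in TraesCS5A03G1163200LC, which had 96, 22 and 12 MIDs in the zones against 94, 80 and 49 MIDs in the rest. The highest was 70.4% in TraesCS6A03G0608300, on 27 MIDs.

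The 3 sections differed in which genes of the zone were abundant. The xylem list stood at 386.9 CPM in the zone of section 1, against 61.3 in section 2 and 26.7 in section 3, and the xylem orthogroup list at 1100, 221.7 and 200.1. G1/S genes, which mark DNA replication, ran the opposite way, with 300.4, 4199 and 7108 CPM. Section 1 therefore combined the highest xylem level with the lowest G1/S level, in the rest of the section as well as in the zone. The provascular list was highest in section 3, with 1154 CPM against 600.8 and 306.7 in sections 1 and 2, and the phloem list in section 2, with 84.9 against 10.2 and 16.7. Of the 106 genes called higher, 36 had their highest zone level in section 1, 21 in section 2 and 49 in section 3. Of the same 106, 32 were past 2-fold in each section. The zone level differed over 4-fold between sections in 34.0% of the 106 and in 36.3% of all genes tested. Counting error alone spreads the zone level of genes with few zone MIDs. The 106 held 9586 MIDs in the zones together and had to share a sign in all 3 sections. The 2 shares therefore do not tell whether the 106 were more or less even than genes in general. The labels do not give the distance of each section from the root tip, and its part in these differences was not tested.

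**Figure D4:**
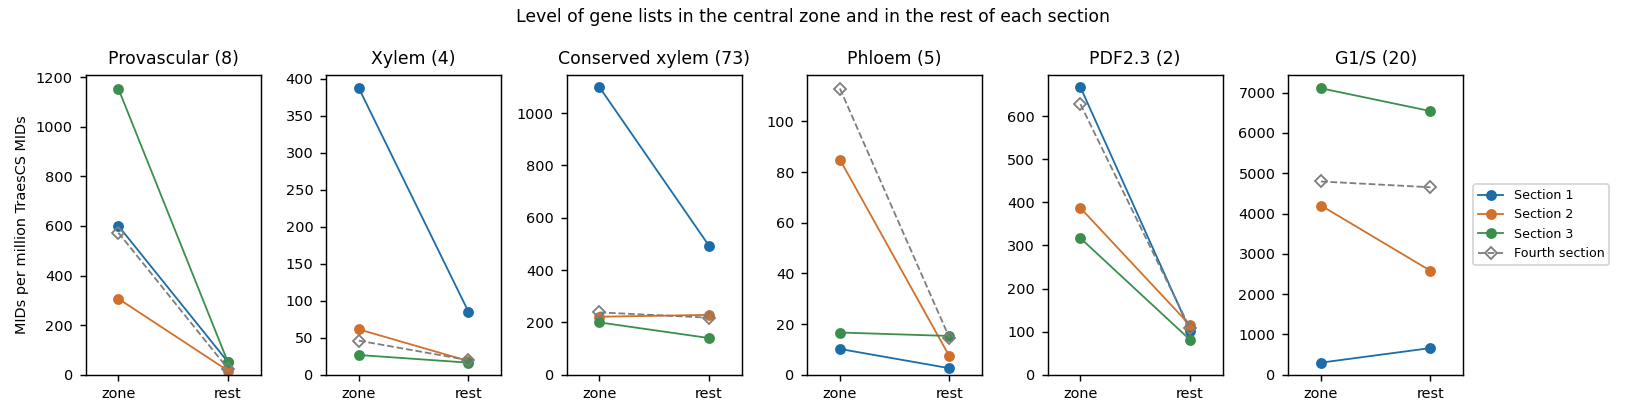
Level of 6 gene lists, in CPM, in the central zone (left) and in the rest (right) of each section, with the number of genes in parentheses and lines joining the values of 1 section, the fourth section dashed. Section 1 stands at 386.9 for the xylem list and at 300.4 for the G1/S list in the zone, the highest and the lowest of the sections.

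The fourth section of the chip, which took no part in these calls, was outlined by eye on the map of all MIDs, without the use of any gene. Its zone held 239019 MIDs and its rest 1717638 MIDs. The provascular list had 137 MIDs in the zone and 42 in the rest (log2 ratio 4.55, 4.04 to 5.09), the PDF2.3 orthologues 150 and 186 (2.53, 2.21 to 2.85), the phloem list 27 and 25 (2.96, 2.12 to 3.80) and the xylem list 11 and 34 (1.22, 0.09 to 2.23). Of the 106 genes called higher in sections 1 to 3, 85 (80.2%) were higher in the zone of the fourth section, where 46.1% of all genes tested were, and 56 were at least 2-fold higher (52.8%, against 5.31% of all genes tested). Of the 656 genes called lower, 575 (87.7%) were lower there, where 53.9% of all genes tested were, and 429 were at least 2-fold lower (65.4%, against 17.6%). A gene without a MID in the zone entered these counts as lower and as at least 2-fold lower. Of the 656, 106 had no finite ratio in the fourth section, as had 253 of all genes tested. The median log2 ratios in the fourth section were 1.03, -1.68 and -0.06 for the genes called higher, the genes called lower and all genes tested. TraesCS5D03G0346300 had 80 MIDs in its zone against 8 MIDs in its rest. TraesCS1B03G0911600 turned round, with 2 MIDs in its zone and 29 in its rest.

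**Figure D5:**
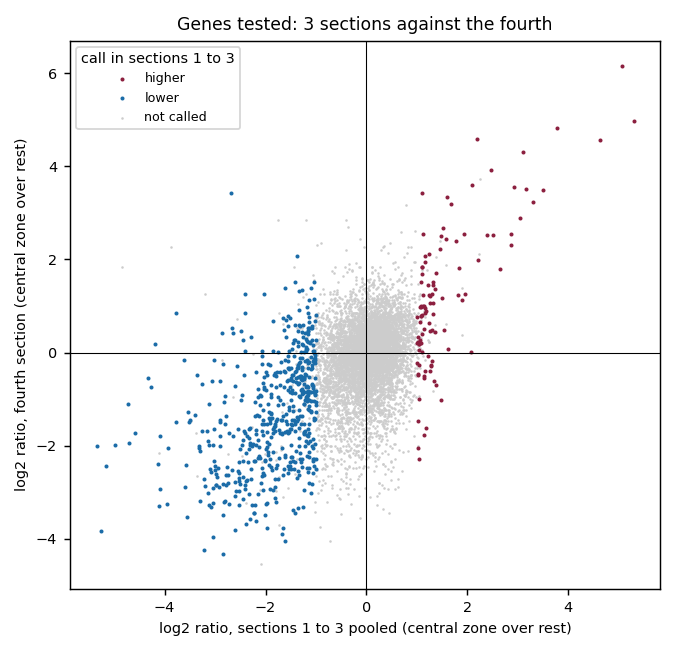
log2 ratio of the central zone over the rest for each gene tested, pooled over sections 1 to 3 (horizontal) and in the fourth section (vertical), coloured by the call in sections 1 to 3, without 253 genes that have no finite ratio in the fourth section. Of the genes called higher 85 of 106, and of those called lower 575 of 656, had the same sign in the fourth section. A zone without a MID counts as lower here, and 106 of the genes called lower have no finite ratio and are not drawn.

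Of the genes depleted from the zone, the 2 with the lowest ratios carry the label cortex in the tables of the study. TraesCS3A03G0974500 had 1, 0 and 1 MIDs in the zones of sections 1, 2 and 3 against 68, 25 and 438 MIDs in the rest, a log2 ratio of -5.40 (-7.41 to -3.40). TraesCS1D03G0787400 had a ratio of -5.51 (-8.34 to -2.68), on 1 MID in the zones and 284 in the rest. It is the lowest ratio among genes with a MID in the zones, since the 4 genes called lower without any were given a bound from a floor of 3 MIDs and cannot be ranked with the others. The other 10 of the 12 lowest had ratios from -5.35 to -4.55, with counting limits between -8.08 and -1.71, and at most 2 MIDs in the zones. They were TraesCS2A03G1334300, TraesCS2B03G1562600, TraesCS3D03G1197600 (a BURP domain protein), TraesCS3B03G0971400, TraesCS7B03G1335100, TraesCS5D03G0659700, TraesCS4A03G1058300, TraesCS7D03G0820600, TraesCS2B03G1536600 and TraesCS1D03G0523300. With so few molecules the order among these 12 is not resolved. Of the 11 cortex genes tested, 10 were called lower, with a median log2 ratio of -4.05, and of the 18 epidermis genes 13, with a median of -2.16, where 8.39% of all genes tested were called lower. The lists are those of the study and were chosen on these chips.

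Defence-related genes with many molecules gave firmer values. TraesCS2B03G1500200, the most abundant gene called lower, encodes a beta-glucosidase that releases toxic benzoxazinoids, defence compounds of cereals, from their glucosides. It had 43, 38 and 53 MIDs in the zones against 2615, 2670 and 2587 MIDs in the rest, a log2 ratio of -3.19 (-3.44 to -2.95) and a 9.15-fold lower level in the zone. TraesCS2B03G1501600 (-3.29, -3.58 to -3.00) and TraesCS2D03G1268900 (-2.46, -2.70 to -2.21), annotated with the same enzyme, were depleted too, and all 3 tested genes of this name were called lower. TraesCS1B03G0069700, a subtilisin-chymotrypsin inhibitor, had 88, 47 and 41 MIDs against 2413, 2190 and 1832 MIDs (-2.52, -2.73 to -2.30), and all 3 tested genes of that name were called lower.

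Other gene groups were counted by the protein names at hand, which cover 366 of the 7816 genes tested and come largely from a few single-cell clusters of the study. All 3 tested genes like the pathogenesis-related protein PRMS, both apyrases, which hydrolyse extracellular ATP, all 3 glycine-rich cell wall proteins and both phenylalanine ammonia-lyases, the entry enzymes of phenylpropanoid synthesis, were called lower. Germin-like proteins were lower in 3 of 4, S-adenosylmethionine synthases in 3 of 5, chitinases in 2 of 6 and Bowman-Birk inhibitors in 2 of 6, and no member of these 8 groups was called higher. These groups were chosen after their values were seen and are given as a description. The share to set beside them is that of annotated genes, of which 95 of the 366 tested were called lower and 9 higher. That share is well above the 8.39% of all genes called lower, and groups with 2 of 6 called lower lie near it.

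Further annotated genes among the lowest included TraesCS1B03G0646400, a proline-rich protein like DC2.15, with 0, 0 and 7 MIDs in the zones against 65, 24 and 664 MIDs in the rest (log2 ratio -4.09, -5.17 to -3.02). TraesCS7A03G0422700 and TraesCS7B03G0229800, ethylene-responsive factors like RAP2-13 (WIND1 in Arabidopsis, where it promotes wound-induced dedifferentiation), had 2 and 3 MIDs in the zones against 174 and 190 MIDs in the rest (-3.77, -5.78 to -1.75, and -3.34, -4.99 to -1.69). TraesCS1D03G0534300, like a cortical cell-delineating protein, had no MID in the zones and 162 in the rest, at least 8.69-fold lower when a floor of 3 MIDs over the 3 zones is used. TraesCS3B03G1405100 (DETOXIFICATION 40-like), TraesCS7A03G0546800 (XAX1-like), TraesCS1A03G0554700 (DRN1), TraesCS5D03G1172900 (a glycine-rich cell wall protein) and TraesCS2D03G0844200 (elicitor-responsive protein 3-like) had 1 to 4 MIDs in the zones and ratios from -4.43 to -3.32, with counting limits between -7.27 and -1.43.

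A pair of abundant genes was depleted unevenly. TraesCS2B03G1383800LC, a member of the cortex list, had 7, 57 and 178 MIDs in the zones against 436, 763 and 3184 MIDs in the rest, and its log2 ratio was -3.40, -0.91 and -1.50. Against the adjacent ring its log2 ratio was 0.06 (-0.21 to 0.33). TraesCS3D03G0864500 had 75, 47 and 32 MIDs against 1562, 1922 and 240 MIDs, and its ratio was -1.82, -2.52 and -0.25, so that in section 3 it was nearly level.

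Most genes called lower were no denser in the zone than off the sections. For 595 of the 656 (90.7%) the density in the zone was at or below that of the ring outside the sections. This held for 16.4% of all genes tested. For 105 of the 106 genes called higher the zone was more than 2 times as dense as that area (29.4% of all genes tested). The calls used the same zone MIDs, so these shares are in part set by the calls and are given as a description. TraesCS1B03G0069700 stood at 408.2 MIDs per 1000000 spots in the zone, 2368 in the rest and 988.1 off the sections. TraesCS5D03G0346300 stood at 457.0, 13.6 and 12.7. Its density was 35.3 in the ring from 0.4 to 0.5 of the radius and at most 11.5 in each ring from there to the section edge. The epidermis list was denser off the sections (3919 MIDs per 1000000 spots) than in the rest of the sections (3010). The part of sideways spread of RNA in the values of the zone was not tested.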

How the data were processed

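Whole-chip Stereo-seq tables of 2 wheat root libraries were available, and only that of the distal root region entered the comparisons. The authors aligned and counted reads with the STOmics Analysis Workflow. The deposited values are counts of MIDs per gene and spot, with exonic MIDs in a second column, not normalized and not restricted to tissue. For the spatial libraries, genome build and annotation were not given in the sources used here. Chloroplast and mitochondrial rows were left out.

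MIDs were summed per gene, section and zone. Ratios of CPM (MIDs per 1000000 nuclear MIDs) were combined over sections (Mantel-Haenszel), with 95% Greenland-Robins intervals. Intervals for 1 section and for shares are exact binomial. With 1 library per region no test was run. Sections of 1 library are not replicates. The steps were tested on simulated data. Python 3.11.15, numpy 2.4.6, pandas 2.3.3 and scipy 1.17.1 were used.

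The zone, gene lists and rule for named genes were chosen with earlier results of these data known. The text names both markers, the provascular, xylem, phloem, pericycle and PDF2.3 genes, the 12 highest and 12 lowest genes called, the 6 called genes with most MIDs in each direction, and up to 12 annotated called genes in each direction. Protein names and lists come from the tables of the paper, which are in part truncated.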

Additional observations from a re-analysis of the deposited data

How the results depend on the processing

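The counts of 106 genes higher and 656 lower depended on the thresholds and on whether off-section RNA was subtracted. A minimum of 50 MIDs gave 377 and 1503, a minimum of 200 MIDs gave 49 and 280, and a log2 ratio past 0.58 gave 450 and 1118. With the off-section density of each gene subtracted, 689 genes were higher and 914 lower, among them 97 of the 106 and 407 of the 656, and the provascular and PDF2.3 log2 ratios were 5.28 and 2.79. Values below 0 after subtraction were set to 0, and sums of 0 to the floor of 3 MIDs, which in part shapes these counts. Of the 656, 548 kept a pooled ratio below 0. The cortex and epidermis lists then gave no value, since their zone density was below that off the sections. Against spots from 0.50 to 1 the provascular, xylem and PDF2.3 ratios were 4.96, 2.76 and 2.89. The PDF2.3 ratio was 1.59 with centres shifted by 0.1 of the radius along +x, and the cortex ratio was -3.42 without genes of suffix LC. Leaving out each section in turn gave 89 to 106 genes higher and 499 to 512 lower. Of these, only 42 to 62 and 328 to 404 were among the 106 and 656, in part because fewer genes then reach 100 MIDs, and all 106 kept a pooled ratio above 0. The list ratios then ranged from 3.75 to 4.45 (provascular), 1.25 to 2.10 (xylem, lowest without section 1), 0.46 to 3.29 (phloem, lowest without section 2), 1.86 to 2.34 (PDF2.3), -2.48 to -2.06 (cortex) and -2.305 to -1.91 (epidermis). In the other alternatives, such as zone boundaries of 0.33 and 0.41, exonic MIDs or equal weight of sections, counts stayed within 1.5 times and list ratios within 1 SD over sections. The genes called changed more than the counts. Boundaries of 0.33 and 0.41 kept 87 and 79 of the 106, and 561 and 545 of the 656. Centres shifted by 0.1 of the radius kept 70 to 77 and 476 to 515, and all 106 kept a pooled ratio above 0 in these settings. No paired analysis was possible because the labels hold no replicate numbers, and the zone and the rest are already set against each other within each section. Depth limits the phloem, pericycle and single xylem genes most.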

Other observations

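Some genes, picked after their values were seen, differed between sections in level or direction. TraesCS7D03G0202800 had 4, 1 and 144 MIDs in the zones of sections 1, 2 and 3 against 5, 6 and 194 MIDs in the rest, and in the fourth section it had 20 MIDs in the zone against 6 MIDs in the rest. TraesCS3B03G0087200 had 5, 93 and 61 MIDs in the zones against 10, 243 and 138 MIDs in the rest. Its log2 ratio was 1.56, 1.45 and 1.48 although its level differed greatly between sections, and it was 2.81 against the adjacent ring, so that most of its MIDs outside the zone lay farther out than that ring. TraesCS1D03G0640500 had no MID in the 3 zones against 116 MIDs in the rest, but 3 against 2 MIDs in the fourth section. Genes with the suffix LC made up 6.60% of the genes called higher, 6.40% of those called lower and 4.79% of all genes tested.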
